A study of Mus musculus with 4 samples.

Results

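The AP-1 and Egr immediate early factors are a set of 10 transcription factor genes: Fos, Fosb, Fosl1, Fosl2, Jun, Junb, Jund, Atf3, Egr1 and Egr3. Every array probe set that the platform annotation gives to exactly 1 of these genes was used, which left 10 probe sets of 9 genes among 22180 genes measured in this way. Jund had 2 probe sets and each of the others 1. The only probe set that names Fosl1 also names a second gene, so Fosl1 is not analysed here. The samples were Ly6C-high monocytes, sorted from the pooled bone marrow of 3 mice and cultured for 24 h with GM-CSF and interleukin 4 (20 ng per ml each), cytokines that turn monocytes into dendritic cells. There were 2 arrays of cells given all-trans retinoic acid at 100 nM from the onset of culture and 2 of cells given the solvent DMSO. The mouse strain, sex and age are not given in the labels, and both treatments share the sort, the cytokines and the culture time. The labels do not say whether the 2 arrays of a treatment came from separate cultures or pools, so the p-values speak only of the variation among these 4 arrays, part or all of which may be technical.

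Immediate early genes are transcribed within minutes of a stimulus, without new protein synthesis, and most of their transcripts decay quickly. Fos and Jun proteins pair through a leucine zipper to form AP-1, which binds DNA and turns growth, stress and cytokine signals from MAP kinases into transcription. Egr proteins bind GC-rich sites through zinc fingers and promote monocyte and macrophage maturation. In myeloid cells AP-1 also shares many enhancers with the lineage factor PU.1. Retinoic acid receptors are known to restrain AP-1 in several other cell types. The cultures were sampled only at 24 h, so the early burst after a stimulus was not measured, nor was how long any level had lasted.

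Of the 10 genes, 7 had an entry in the RefSeq promoter table of build GRCm38.p6; Fosl1, Egr1 and Egr3 did not. The 250 bases before the RefSeq start are shown, 5′ to 3′, for Fosl2, Junb, Jund and Jun, the genes whose retinoic acid arrays all lay below the DMSO arrays. Capitals mark matches, on either strand, to TGANTCA (the AP-1 site), TGACNTCA (the longer site of AP-1 with ATF partners), TGACG (the half-site of CREB and ATF factors, which a TGACNTCA match can contain), GCGNGGGCG (the Egr site), the CArG box of serum response factor, or a DR5 element, the direct repeat bound by retinoic acid receptors.
Fosl2, chr5:32136222-32136471, plus strand: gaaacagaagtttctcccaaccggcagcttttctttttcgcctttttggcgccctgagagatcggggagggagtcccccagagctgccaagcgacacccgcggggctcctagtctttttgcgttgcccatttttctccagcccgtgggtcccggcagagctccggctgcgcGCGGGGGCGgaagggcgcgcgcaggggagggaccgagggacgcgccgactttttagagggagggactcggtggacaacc
Junb, chr8:84978749-84978998, minus strand: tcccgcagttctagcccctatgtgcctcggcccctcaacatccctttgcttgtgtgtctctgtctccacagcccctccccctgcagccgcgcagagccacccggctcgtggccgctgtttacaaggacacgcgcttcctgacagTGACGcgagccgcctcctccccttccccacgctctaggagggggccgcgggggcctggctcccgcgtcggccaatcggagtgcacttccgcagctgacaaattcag
Jund, chr8:70697489-70697738, plus strand: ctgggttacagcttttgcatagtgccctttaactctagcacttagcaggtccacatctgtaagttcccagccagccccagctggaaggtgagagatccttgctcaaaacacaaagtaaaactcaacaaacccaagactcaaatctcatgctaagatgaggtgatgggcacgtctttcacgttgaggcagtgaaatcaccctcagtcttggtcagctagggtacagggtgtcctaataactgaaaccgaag
Jun, chr4:95052223-95052472, minus strand: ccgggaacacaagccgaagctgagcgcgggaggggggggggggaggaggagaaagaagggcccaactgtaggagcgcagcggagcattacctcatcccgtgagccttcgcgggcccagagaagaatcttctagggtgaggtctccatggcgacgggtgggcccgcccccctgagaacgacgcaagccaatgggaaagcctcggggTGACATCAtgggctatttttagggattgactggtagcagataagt

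In these windows Fosl2 held 1 Egr site starting 79 bases before its start, Junb held 1 TGACG half-site at 106 bases and Jun held 1 TGACNTCA at 45 bases. The Jund window held no match to any of the 6 motifs. Among 32851 mouse promoter windows of the same length, 6.75% held TGANTCA, 7.49% TGACNTCA, 17.8% TGACG, 4.7% GCGNGGGCG, 1.47% a CArG box and 0.0883% a DR5 element. Of the other members, Fos held 2 TGACG half-sites, Atf3 held 1, and Fosb held 1 with 1 Egr site. No member window held TGANTCA, a CArG box or a DR5 element. These matches describe letters only; sites outside the window were not searched.

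The authors' intensities were RMA values, which are background corrected, equalised between arrays and summarised per probe set; levels are given here as log2 intensity, and differences as the mean with retinoic acid minus the mean with DMSO. Array medians were 80.0 and 81.8 with retinoic acid and 81.3 and 81.2 with DMSO, in linear intensity. The marker genes named here beyond the rule for named genes were chosen after their values were seen. A level of 6.35 served as a guide to dim signal; it is the 95th percentile of the mean level of 1405 olfactory and vomeronasal receptor probe sets. Monocyte markers were present: all 8 lay above the dim level on all arrays, with summed linear intensities of 27920 and 26701 with retinoic acid and 24079 and 25699 with DMSO. Of the monocyte markers 1 passed as lower, Spi1, which encodes PU.1 (10.02 and 10.01 with retinoic acid, against 10.61 and 10.75 with DMSO; limma adjusted p = 0.0438). The list was mixed. Itgam and Fcgr1 were higher by 0.66 and 0.60 without passing (limma adjusted p = 0.0893 and 0.116). Cd14 and Lyz2 also lay higher, and Ccr2 and Ly6c2 lower, without passing. The median difference of the 8 markers was 0.12. Of 7 dendritic cell markers, 3 were lower (H2-Ab1, Zbtb46 and Irf4) and 1 higher (Dpp4) with retinoic acid. The summed intensity of the 7 was 10611 and 10430 with retinoic acid against 20058 and 19395 with DMSO. Most of that fall came from H2-Ab1 alone, at 3519 and 3489 with retinoic acid against 10380 and 9965 with DMSO. Markers of neutrophils and their precursors summed to 14611 and 14296 with retinoic acid and to 14272 and 15303 with DMSO, and 0 of 8 passed the test (limma). Every measured marker of erythroid cells (2 of 2), 5 of 6 of T or NK cells, 3 of 5 of B cells and 3 of 6 of mast cells or basophils were below the dim level on all arrays. The B cell marker Cd79b lay above it and passed as higher, at 7.77 and 7.62 with retinoic acid, against 7.06 and 7.02 with DMSO (limma adjusted p = 0.0471).

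Part of the AP-1 and Egr set was called lower with retinoic acid, and none of it was called higher. Fosl2, Jund and Junb fell 1.81-fold, 1.72-fold and 1.60-fold, which was 3 of 10 probe sets and 3 of 9 genes. The other 6 genes did not pass: Jun lay 1.46-fold lower, and Fos, Fosb, Atf3, Egr1 and Egr3 differed by 1.09-fold or less in either direction. Over all 39720 probe sets tested, 1.19% were lower and 0.904% higher at a limma adjusted p under 0.05. Both retinoic acid arrays lay below both DMSO arrays for 5 of the 10 member probe sets, against 23.3% of all probe sets, and above both for 0, against 20.7%. The median difference over the 10 probe sets, which count Jund 2 times, was -0.28, beside -0.01 over all probe sets. With 1 probe set per gene it was -0.12 over the 9 genes, beside 0.01 over all genes. In bulk samples, fewer cells expressing a gene and less RNA per cell cannot be told apart.

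**Figure D1:**
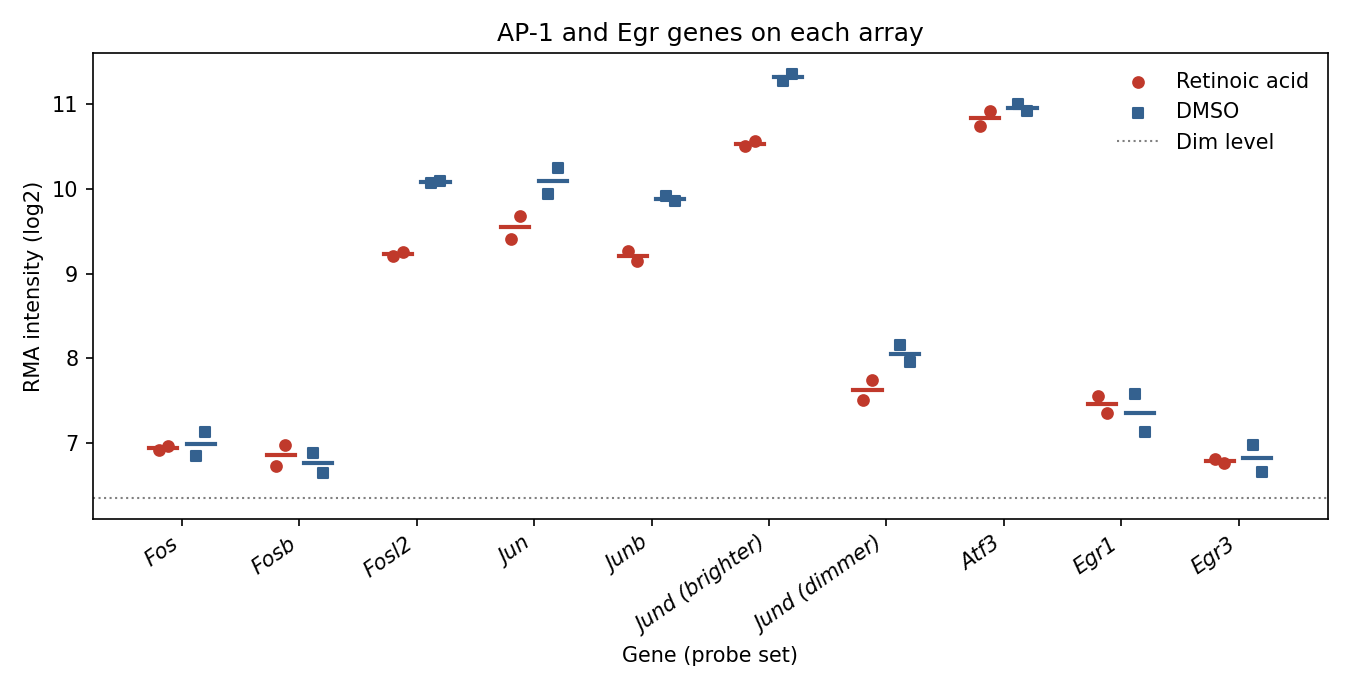
RMA intensity (log2, vertical axis) of the 10 AP-1 and Egr probe sets on each array, with retinoic acid (circles) left of DMSO (squares), horizontal bars at the group means and a dotted line at the dim level of 6.35. Points of Fosl2, Jun, Junb and both Jund probe sets do not overlap between treatments, whereas those of Fos, Fosb, Atf3, Egr1 and Egr3 do.

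Within the Fos family, Fosl2 carried the largest difference of any member. Fosl2 encodes Fra-2, a Fos relative that lacks the strong activation domain of Fos and whose gene is usually expressed for longer after a stimulus. Its probe set (17436237) read 9.20 and 9.26 with retinoic acid, against 10.08 and 10.10 with DMSO. Both retinoic acid arrays were low, and the nearest arrays of opposite treatment lay 0.82 apart on the log2 scale, against SDs of 0.04 with retinoic acid and 0.02 with DMSO (n = 2 each). The difference was -0.86 ± 0.08 (log2, SE; 95% interval -1.06 to -0.65), with a limma adjusted p of 0.0174.

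Fos and Fosb, the founding Fos genes and the most rapidly induced, were close to the dim level in both treatments. Fos (probe set 17277387) read 6.91 and 6.96 with retinoic acid and 6.85 and 7.13 with DMSO. The treatments overlapped, since DMSO held both the lowest and the highest array. The Fos difference was -0.05 ± 0.12 (log2, SE), with an interval of -0.37 to 0.26 (limma adjusted p = 0.901). Fosb (probe set 17487211) read 6.73 and 6.98 with retinoic acid and 6.89 and 6.65 with DMSO, again with interleaved arrays. Its difference was 0.09 ± 0.13 (log2, SE; interval -0.26 to 0.44; limma adjusted p = 0.849). Neither interval reaches the difference measured for Fosl2, although RMA can compress differences of dim probe sets, and how far it did so here was not tested.

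Jun proteins can pair with each other as well as with Fos and ATF proteins. All 4 Jun family probe sets, 2 of them of Jund, read lower with retinoic acid on both arrays, as did 23.3% of all probe sets. Of the 4, 2 passed as lower, against 1.19% of all probe sets. Jund, the Jun gene with the steadiest expression in resting cells, was measured by a brighter probe set (17502001) and a dimmer one (17510127). The brighter read 10.51 and 10.56 with retinoic acid, against 11.28 and 11.36 with DMSO. It fell by 0.78 ± 0.08 on the log2 scale (SE; interval -0.99 to -0.57; limma adjusted p = 0.0237), with group SDs of 0.04 and 0.05.

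The dimmer Jund probe set read 7.50 and 7.75 with retinoic acid and 8.16 and 7.96 with DMSO. Its arrays did not overlap either, but they were spread more widely, and the gap between treatments was 0.21. The difference was -0.43 ± 0.13 (log2, SE; interval -0.76 to -0.10), which did not pass (limma adjusted p = 0.249). The 2 Jund probe sets therefore had the same direction and overlapping intervals, and only the brighter one carries the call.

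Junb, which encodes a Jun protein that often weakens activation by Jun and takes part in macrophage and dendritic cell gene control, had 1 probe set (17511259). It read 9.27 and 9.15 with retinoic acid, against 9.91 and 9.86 with DMSO. The retinoic acid arrays were both low, by 0.59 at the nearest pair. Junb fell by 0.68 ± 0.09 on the log2 scale (SE; interval -0.90 to -0.45), with a limma adjusted p of 0.0398, the highest of the 3 calls.

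Jun, the strongest activator of the Jun family, read 9.41 and 9.68 with retinoic acid and 9.94 and 10.24 with DMSO (probe set 17427312). The treatments did not overlap, but arrays of the same treatment differed by more than those of Junb, with SDs of 0.19 with retinoic acid and 0.21 with DMSO. The difference was -0.55 ± 0.15 (log2, SE; interval -0.94 to -0.15) and did not pass (limma adjusted p = 0.224). The interval of Jun includes the differences measured for Junb and for both Jund probe sets.

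**Figure D2:**
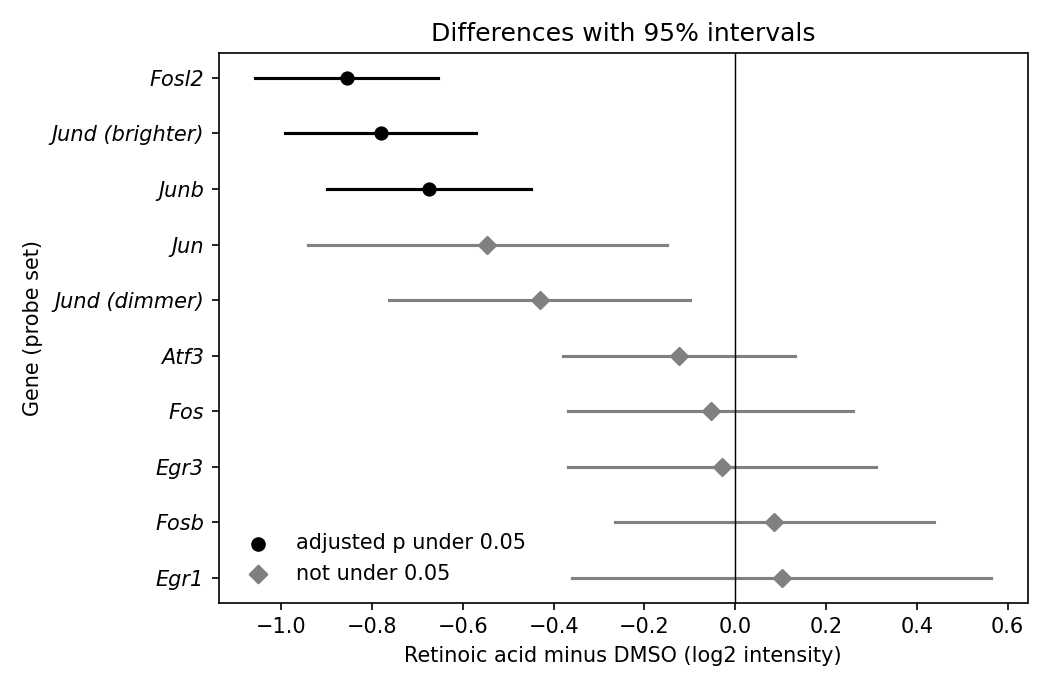
Difference in log2 intensity, retinoic acid minus DMSO (horizontal axis), for each AP-1 and Egr probe set with its 95% interval from limma; black circles have an adjusted p under 0.05, grey diamonds do not. Fosl2, the brighter Jund probe set and Junb lie at -0.86, -0.78 and -0.68, and the intervals of Atf3, Fos, Egr3, Fosb and Egr1 span 0.

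Atf3, a stress-induced member of the ATF family that represses inflammatory genes in macrophages, was among the brighter members and read nearly alike in both treatments. Its probe set (17231033) gave 10.75 and 10.92 with retinoic acid and 11.00 and 10.92 with DMSO. Retinoic acid replicate 2 lay marginally above DMSO replicate 2, so the treatments overlapped. The difference was -0.12 ± 0.10 (log2, SE), with an interval of -0.38 to 0.13 (limma adjusted p = 0.670), which reaches down to a 1.30-fold fall. Without 1 array the difference ran from -0.21 to -0.04.

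Egr1 and Egr3, zinc finger factors of the same family, did not separate the treatments. Egr1 (probe set 17349514) read 7.56 and 7.35 with retinoic acid and 7.58 and 7.13 with DMSO. Both extremes were DMSO arrays, with an SD of 0.32 against 0.15 with retinoic acid. The difference of 0.10 ± 0.18 (log2, SE) had the widest interval of the members, -0.36 to 0.56 (limma adjusted p = 0.868). Egr3 (probe set 17301718) read 6.81 and 6.77 with retinoic acid and 6.98 and 6.65 with DMSO. Its difference was -0.03 ± 0.13 (log2, SE; interval -0.37 to 0.31; limma adjusted p = 0.957), close to the dim level.

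The calls of Fosl2, Jund and Junb are near the threshold of a design with 2 arrays a group. With the constant probe sets kept in the fit, none of the 3 passed (limma adjusted p = 0.0638, 0.0778 and 0.103). No probe set on the array passed in that fit (smallest 0.0535), so it does not single out these 3. With the replicate block, whose pairing the labels do not give, the 3 did not pass either (limma adjusted p = 0.0907, 0.104 and 0.134). Without any 1 array their differences stayed between -0.88 and -0.61.

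Among genes of other proteins that pair with AP-1 or bind the same sites, 19 were measured, of which 2 rose and 0 fell. The median difference was 0.04. Over all 22180 genes, 1.28% rose and 1.79% fell, and the median was 0.01. The same shares are the background of every list below. At an unadjusted limma p under 0.05, 2406 of all 39720 probe sets were higher and 2929 lower. Jdp2 encodes a small Jun-binding protein that represses AP-1 targets. It read 9.23 and 9.29 with retinoic acid, against 8.39 and 8.56 with DMSO. Both retinoic acid arrays were high, and Jdp2 rose 1.73-fold (0.79 ± 0.10, log2, SE; limma adjusted p = 0.0348).

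Bach2, a repressor that binds AP-1-like sites with small Maf partners and competes with Jun proteins in lymphocytes, rose 1.74-fold. It read 6.98 and 6.93 with retinoic acid, against 6.15 and 6.17 with DMSO (0.80 ± 0.08, log2, SE; limma adjusted p = 0.0200). The DMSO level was under the dim level, so the fold is against background. Batf3 and Batf, AP-1 factors that work with Irf4 and Irf8 in dendritic cells, did not pass: Batf3 differed by 0.24 ± 0.08 and Batf by 0.10 ± 0.14 (log2, SE; limma adjusted p = 0.321 and 0.822). Atf2, a partner of Jun, differed by -0.03 ± 0.12 (adjusted p = 0.956). The calls of Jdp2 and Bach2 were also lost with the replicate block (limma adjusted p = 0.110 and 0.104). The same held with the constant probe sets kept (0.116 and 0.0644), where no probe set on the array passed. Without any 1 array the difference of Jdp2 ran from 0.70 to 0.87 and that of Bach2 from 0.77 to 0.82.

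Fos, Jdp2 and Batf are consecutive protein-coding genes on mouse chromosome 12 in the RefSeq table. Of these 3 neighbours, Jdp2 had a difference of 0.79, against -0.05 for Fos and 0.10 for Batf, and Jdp2 was the only one of the 3 to pass. The genes next to them on either side, Tmed10 and Flvcr2, differed by -0.01 ± 0.08 and 0.04 ± 0.08 (log2, SE; limma adjusted p = 0.979 and 0.901). Differences between neighbours were not tested.

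Of the Egr factors' relatives and co-repressors, 8 genes were measured. With retinoic acid 1 fell and 0 rose, and the median difference was -0.05. Egr2, the relative needed for alternative activation of macrophages by interleukin 4, read 10.01 and 10.14 with retinoic acid and 10.52 and 10.24 with DMSO. The arrays did not overlap, but the DMSO arrays were apart, and the difference of -0.30 ± 0.12 (log2, SE; interval -0.63 to 0.02) did not pass (limma adjusted p = 0.408). Without 1 array it ran from -0.44 to -0.16. Egr4 was under the dim level in both groups (-0.02 ± 0.14). The co-repressor Nab1 differed by -0.25 ± 0.10 and the brighter probe set of Nab2, a co-repressor that is itself an Egr target, by 0.25 ± 0.15 (limma adjusted p = 0.379 and 0.564); the dimmer Nab2 probe set differed by 0.07 ± 0.09. The gene that fell was Klf4, a zinc finger factor of monocytes that binds related GC-rich sites: it read 7.64 and 7.78 with retinoic acid, against 9.51 and 9.78 with DMSO, and was 3.83-fold lower (limma adjusted p = 0.00826).

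Genes of the factors that switch on Fos and Egr1 held no calls, which is close to what the shares over all genes give for 12 genes. Of 12 measured genes of serum response factor, its ternary complex partners and co-activators, 0 rose and 0 fell (limma; 4 at an unadjusted p under 0.05), and the differences ran from -0.44 to 0.48 with a median of -0.08. Srf itself read 9.82 and 9.93 with retinoic acid and 9.90 and 9.85 with DMSO, a difference of 0.00 ± 0.08. Transcript levels do not measure the activity of these factors.

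MAP kinase genes moved in both directions. Of 22 measured, 1 rose, 2 fell and 19 did not pass, with a median of 0.00. Map2k6, a kinase that activates p38, read 7.95 and 7.80 with retinoic acid, against 5.98 and 6.33 with DMSO. It rose 3.29-fold (limma adjusted p = 0.0149), but both DMSO arrays lay under the dim level, so the fold is against background and its size is uncertain. Mapk13, which encodes p38 delta, read 8.46 and 8.39 with retinoic acid, against 10.09 and 10.01 with DMSO, and was 3.09-fold lower (limma adjusted p = 0.00498). Map3k5, which encodes the stress kinase ASK1, read 7.90 and 7.87 with retinoic acid, against 8.63 and 8.66 with DMSO, and was 1.70-fold lower (limma adjusted p = 0.0218). Transcript levels do not measure kinase activity.

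**Figure D3:**
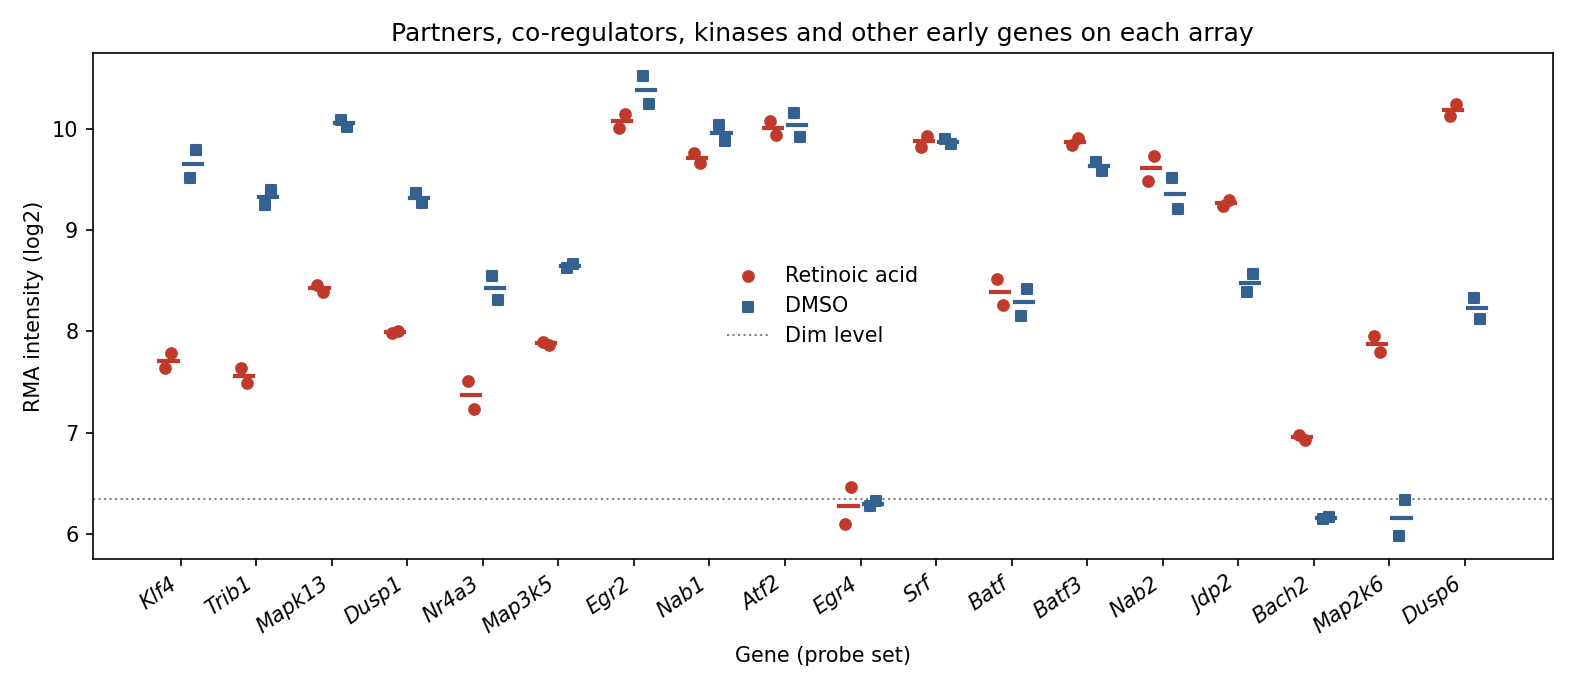
RMA intensity (log2, vertical axis) on each array for genes related to the AP-1 and Egr factors, ordered from the most lowered to the most raised, with retinoic acid (circles) left of DMSO (squares), bars at the group means and the dim level dotted. Klf4 stands at the low end with a difference of -1.94 and Dusp6 at the high end with 1.96, and Srf, Batf, Atf2 and Egr4 overlap between treatments.

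Of the other immediate early genes 43 were measured; 7 fell, 2 rose and 34 did not pass, with a median difference of -0.12. At an unadjusted limma p under 0.05 there were 23 of the 43, both directions counted, beside 2406 higher and 2929 lower of all 39720 probe sets. The 4 called genes with the largest differences were Dusp6, Trib1, Dusp1 and Nr4a3. Dusp1, a phosphatase that switches off p38 and JNK, read 7.99 and 8.0 with retinoic acid, against 9.37 and 9.26 with DMSO, and was 2.50-fold lower (limma adjusted p = 0.00746). Dusp6, a phosphatase of ERK, went the opposite way in its brighter probe set, which read 10.13 and 10.24 with retinoic acid, against 8.33 and 8.12 with DMSO, a 3.89-fold rise (limma adjusted p = 0.00603). A second Dusp6 probe set, under the dim level in both groups, differed by 0.03 ± 0.08 (log2, SE).

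Trib1, a pseudokinase that promotes degradation of C/EBP alpha, read 7.64 and 7.49 with retinoic acid, against 9.25 and 9.39 with DMSO, and was 3.38-fold lower (limma adjusted p = 0.00642). Nr4a3, an orphan nuclear receptor, read 7.51 and 7.23 with retinoic acid, against 8.55 and 8.31 with DMSO, and was 2.08-fold lower (limma adjusted p = 0.0431). Calls of Klf4, Map2k6, Mapk13, Map3k5, Dusp1, Dusp6, Trib1 and Nr4a3 were likewise lost with the constant probe sets kept (limma adjusted p from 0.0624 to 0.164). No probe set on the array passed in that fit. With the replicate block, Klf4, Mapk13, Dusp6 and Trib1 kept their calls (limma adjusted p from 0.0374 to 0.0483) and the others of these genes lost theirs. Without any 1 array the differences of all these genes kept their sign. In a list of 12 measured heat shock and dissociation genes, which respond to handling of cells, 0 passed (limma). At an unadjusted limma p under 0.05 there was 1, and the median difference was -0.01. For 12 genes, 0 calls is close to what the shares over all genes give, and an effect of handling was not tested. The summed level of the dendritic cell markers, given above, fell mostly through H2-Ab1. This sum moved in the same direction as the Fosl2, Jund and Junb transcripts, and its part in their difference was not tested.

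**Figure D4:**
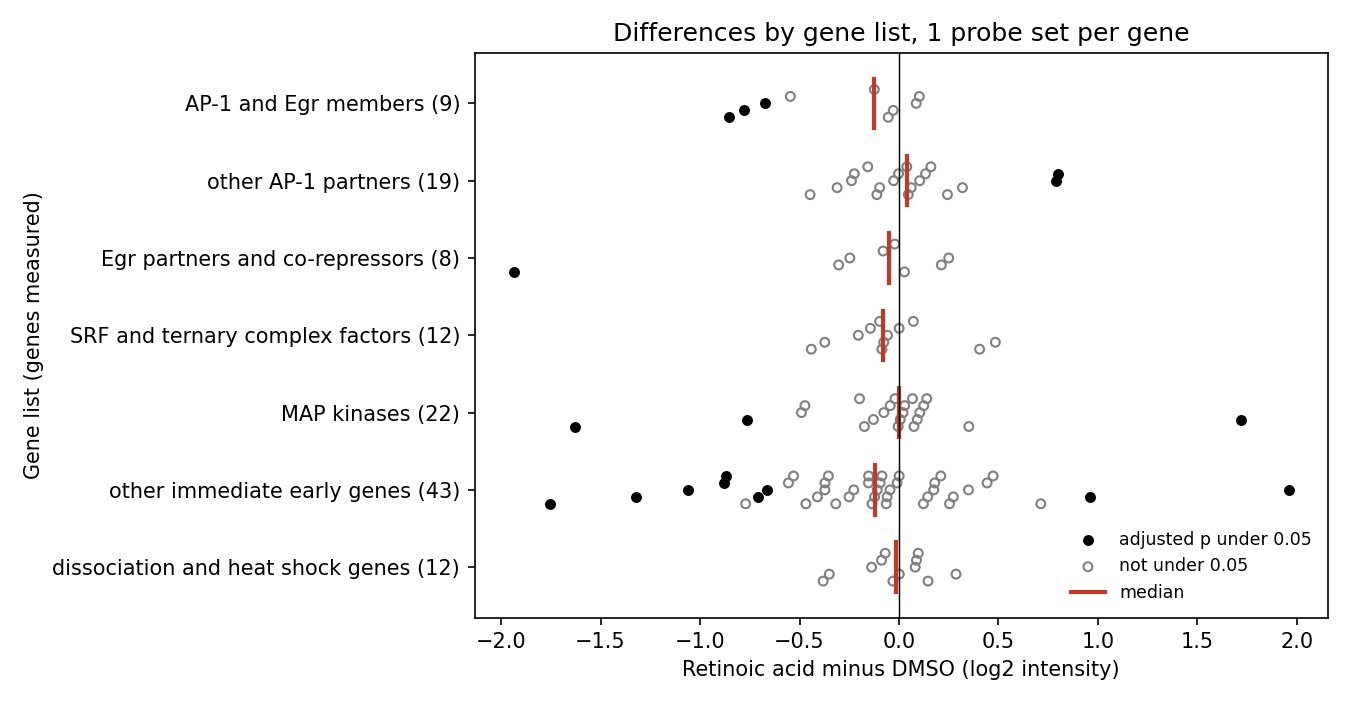
Difference in log2 intensity, retinoic acid minus DMSO (horizontal axis), of each measured gene in the AP-1 and Egr set and in 6 related lists, 1 probe set per gene; filled points have a limma adjusted p under 0.05 and red bars are list medians. The AP-1 and Egr genes have 3 filled points, all below 0, and a median of -0.12 over 9 genes, and the serum response factor and heat shock lists have none.

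The 3 genes whose profile over the 4 arrays was closest to that of Fosl2 were Lrp8, Plp2 and Ccr7, out of 23511 probe sets with 1 gene symbol outside the set, by Euclidean distance between mean-centred log2 values. Lrp8, a lipoprotein receptor, lay at a distance of 0.0321, Plp2, a membrane proteolipid protein, at 0.0348, and Ccr7, the chemokine receptor of dendritic cells migrating to lymph nodes, at 0.0406. Ccr7 read 7.25 and 7.27 with retinoic acid, against 8.08 and 8.15 with DMSO. Since 2 groups of 2 arrays define the profile, likeness here means a difference of similar size and little else.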

How the data were processed

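Per the submitters' processing notes, the authors made the deposited intensities with Affymetrix Expression Console and RMA; versions and genome build are not given in the sources used here. The table held 41345 probe sets, 23521 with 1 symbol, 1814 with several and 16010 unnamed here. The linear intensities were transformed to log2 and not normalized again. The 1625 probe sets with one identical value on all 4 arrays, none with a gene, were left out, leaving 39720. The 2 treatments were compared by limma 3.58.1 (R 4.3.3, lmFit, eBayes, two-sided, no covariates), with Benjamini-Hochberg adjustment over all 39720 and a threshold of 0.05. SE and 95% intervals are limma's moderated ones. The code was also run on data simulated from limma's own fitted model, which cannot show whether that model suits these 4 arrays. An exact permutation test of 2 against 2 arrays cannot go below 0.333. For lists, each gene was read from the brightest of its probe sets, by the mean of the 4 arrays. Named were every member, the called genes of each list (the 4 with the largest differences where over 5 passed), 9 preset relatives and the 3 most alike genes. Members, lists and choices were made with earlier results of these data known. Alternatives were the constant probe sets kept, 1-symbol or brighter probe sets only, quantile normalization, an offset of 16, an intensity trend, a replicate block and each array left out. The number of arrays limits the precision, and no batch is given. RefSeq held 23328 of the 23521 gene identifiers, and 0 symbols changed.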

Additional observations from a re-analysis of the deposited data

How the results depend on the processing

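All 3 calls among the AP-1 and Egr probe sets (0 higher, 3 lower) were also made with probe sets of 1 symbol only, with brighter probe sets, after quantile normalization, with an offset of 16 and with an intensity trend; 0 were made with the constant probe sets kept, with the replicate block (limma adjusted p of 0.0907 for Fosl2, 0.104 for Jund and 0.134 for Junb) and in each of the 4 fits without an array (range 0 to 0). Over all probe sets, 359 higher and 472 lower became 0 and 0 with the constant probe sets kept (2927 and 3333 at an unadjusted p under 0.05), 757 and 879 with 1-symbol probe sets, 545 and 671 with brighter ones, 73 and 88 with the replicate block, and 12 to 30 and 13 to 25 without any 1 array. The related lists held 5 higher and 10 lower genes, against 0 and 0 with the constant probe sets kept, 10 and 16 with 1-symbol probe sets, 1 and 3 with the replicate block, and 0 in each fit without an array. Fewer probe sets or arrays in the fit account for some of these counts by construction; otherwise the cause was not tested. The labels give same-numbered arrays no shared origin, and their deviations correlated at -0.25; with 2 arrays a group the crossed value is 0.25 by construction, so this does not settle the pairing. With the pairing crossed, chosen after seeing the data, 194 were higher and 263 lower, with 1 member lower and 3 and 5 list genes.

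Differences that changed sign belonged to probe sets that did not pass in any fit. Without 1 array, Fos ran from -0.20 to 0.0882 and Fosb from -0.0368 to 0.21 (-0.03 without DMSO replicate 2). Egr1 ran from -0.12 to 0.33 (-0.0016 without retinoic acid replicate 1), Egr3 from -0.19 to 0.13 and Egr4 from -0.20 to 0.16. In the same fits Atf2 ran from -0.15 to 0.0920, Batf from -0.0303 to 0.24 and Srf from -0.0547 to 0.0562. The dim Dusp6 probe set ran from -0.0193 to 0.0833, and the dimmer Nab2 probe set, which lay above the dim level, from -0.0018 to 0.14. After quantile normalization Srf was -0.0064.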
